A study of Mus musculus with 18 samples.

Results

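The distal ends of the mouse autosomes were examined in reduced representation bisulfite sequencing (RRBS) of single oocytes, a method that enriches CpG-rich DNA by reading MspI fragments. A CpG belonged to a distal end if it lay within 5 Mb of the highest position listed for its chromosome in any of the 18 libraries, on chromosomes 1 to 19 of the mouse build mm9. With at least 5 reads required in an oocyte, 34711 of 629921 autosomal CpGs were distal. The largest number in an oocyte was 10023, in SF KO replicate 2, and the smallest 835, in SF WT replicate 3, while 14215 distal CpGs reached 5 reads in 1 oocyte only.

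The oocytes fell into 4 groups. The EAF KO group held 2 oocytes from early antral follicles, and the EAF WT group held 4. The SF KO group held 5 oocytes from secondary follicles, an earlier stage of follicle growth, and the SF WT group held 7. KO oocytes came from Sall4fl/fl;Zp3-Cre females, in which Cre expressed from the oocyte-specific Zp3 promoter removes the floxed Sall4 alleles. WT oocytes came from Sall4fl/fl females, which carry the floxed alleles without Cre. The labels name P12.5 and P17.5 for every sample without tying a day to a stage, and they name no animal. Each group therefore counts as 1 sample, no test was made, and each SD describes oocytes and not animals. Loss of Sall4 itself could not be checked in these methylation tables.

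Mouse autosomes are telocentric: the lowest coordinates lie beside the centromere and the highest beside the telomere. Oocyte DNA is almost unmethylated at the start of growth and gains methylation while the oocyte grows, through DNMT3A and its cofactor DNMT3L, mainly over transcribed gene bodies. SALL4 is a zinc finger transcription factor with high expression in oocytes and in embryonic stem cells. CpG islands, dense runs of CpGs at many promoters, mostly stay unmethylated, so CpG density has to be matched when levels of different regions are compared.

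The distal ends were rich in the sequence that RRBS reads. They span 95 Mb, or 3.93% of the listed autosomal span, and held 5.51% of the CpGs with 5 reads. They had 666 listed CpGs per Mb, against 473 per Mb in the rest, and were the denser part on 13 of 19 chromosomes. Chromosome 11 had the most at its end, with 1450 per Mb, and chromosome 17 the fewest, with 175 per Mb. In the RefSeq annotation of GRCm38.p6, a later build used here for gene names and neighbourhoods alone, the last 5 Mb of the autosomes held 11.7 protein-coding genes per Mb, against 8.33 per Mb elsewhere. The end of chromosome 15 there holds all 9 Hoxc genes, which encode homeobox factors of body patterning, and all 26 keratin (Krt) genes of the chromosome. The end of chromosome 10 holds 58 of its 68 olfactory receptor (Olfr) genes, and that of chromosome 12 holds 55 of its 183 immunoglobulin heavy chain variable (Ighv) segments. None of the CpGs below was assigned to a gene, because no annotation of mm9 was used.

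Distal CpGs carried little methylation, and less in KO than in WT oocytes at the early antral stage. The distal level, the mean over distal CpGs each weighted equally, was 5.01% and 6.53% in the EAF KO oocytes. In the EAF WT oocytes it was 17.8%, 19.6%, 18.1% and 15.8%. Every EAF KO oocyte lay below every EAF WT oocyte. The means were 5.77% ± 1.07 in EAF KO (SD, n = 2 oocytes) and 17.8% ± 1.58 in EAF WT (SD, n = 4 oocytes), a KO minus WT difference of -12.0 percentage points. The rest of the autosomes, not matched, differed by -12.1 points in the same oocytes, so the absolute KO deficit was about as large inside the distal ends as outside them.

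At the secondary follicle stage the groups overlapped. The distal level was 17.51%, 5.15%, 6.81%, 5.55% and 5.67% in the 5 SF KO oocytes. In the 7 SF WT oocytes its lowest value was 3.54%, its median 11.3% and its highest 22.0%. SF KO replicate 1 stood far above the other SF KO oocytes and within the SF WT range. The means were 8.14% ± 5.27 in SF KO (SD, n = 5 oocytes) and 12.3% ± 5.96 in SF WT (SD, n = 7 oocytes). The KO minus WT difference was -4.20 points with all oocytes and -6.54 points without SF KO replicate 1. On the 41 distal CpGs read at least 5 times in every SF oocyte it was 0.578 points, with means of 21.3% in SF KO and 20.7% in SF WT. The same restriction at the early antral stage left 178 CpGs and a difference of -11.8 points.

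Between stages, the distal level was 2.37 points lower in EAF than in SF oocytes of the KO (-2.37) and 5.47 points higher in EAF than in SF oocytes of the WT, with overlapping ranges in both genotypes. The matched rest differed by -2.50 points between EAF and SF in KO and by 6.97 points in WT. The KO stage difference rested on SF KO replicate 1: without that oocyte it was -0.024 points.

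Exact binomial intervals at 95% on the distal reads were narrow. In SF KO replicate 2, for example, 5.44% of 253710 distal reads were methylated, with an interval of 5.36% to 5.53%, and in EAF WT replicate 2, the oocyte with the fewest distal reads, 21.3% of 21527 reads, with an interval of 20.7% to 21.8%. These intervals reflect counting error alone: reads may be PCR copies of 1 molecule, and a read over several CpGs counts at each.

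Within each oocyte, distal CpGs were less methylated than CpGs of equal density elsewhere on the same chromosome. Density was the number of CpG positions listed in any library within 100 bp of a CpG, itself included. The distal level was below that of the matched rest in 18 of 18 oocytes. The differences were -3.21 and -3.63 points in the EAF KO oocytes. They were -4.46, -2.85, -3.33 and -2.86 points in the EAF WT oocytes. In the SF KO oocytes they were -4.00, -3.62, -3.27, -3.76 and -3.16 points, and in the SF WT oocytes they ran from -2.92 to -1.11 points with a median of -1.52. EAF WT replicate 1 had the lowest value of all and SF WT replicate 6 the value nearest to 0.

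**Figure D1:**
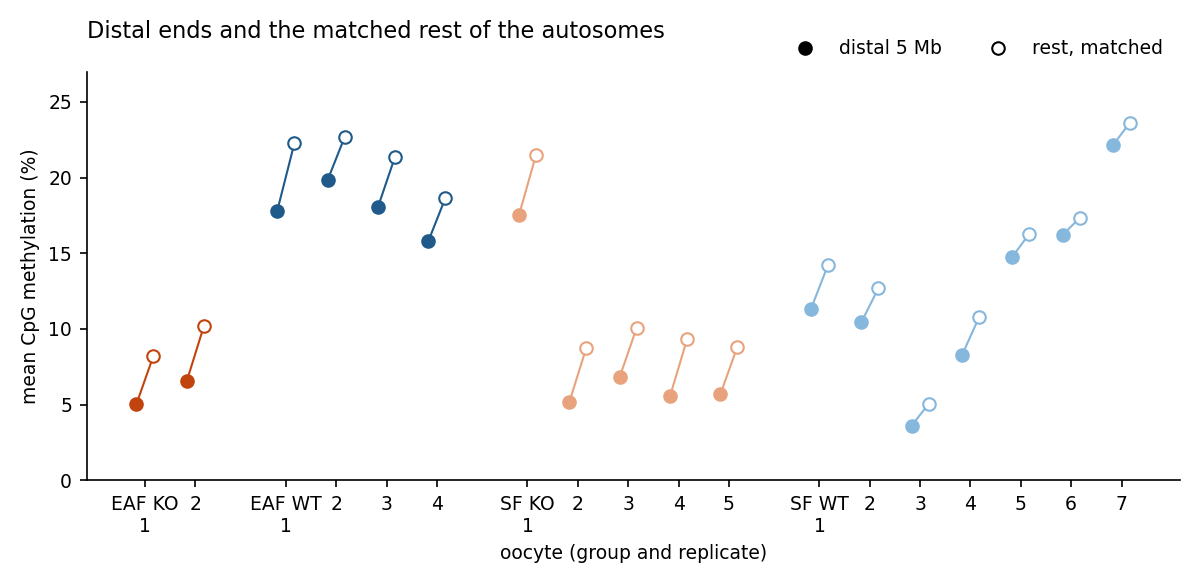
Mean CpG methylation in percent (vertical axis) in each of the 18 oocytes, ordered by group and replicate (horizontal axis). Filled circles are the distal 5 Mb, open circles the matched rest of the same chromosomes, and a line joins the 2 values of an oocyte. The filled circle is the lower in all 18, and SF KO replicate 1, at 17.51%, stands above the other SF KO oocytes.

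The mean matched difference was -3.42 ± 0.298 points in EAF KO (SD, n = 2 oocytes) and -3.38 ± 0.757 points in EAF WT (SD, n = 4 oocytes). It was -3.56 ± 0.346 points in SF KO (SD, n = 5 oocytes) and -1.89 ± 0.668 points in SF WT (SD, n = 7 oocytes). The EAF KO and EAF WT ranges overlapped, with means apart by -0.047 points. All SF KO oocytes lay below all SF WT oocytes, with means apart by -1.67 points, or by -1.56 points without SF KO replicate 1. With the end window narrowed to 2 Mb this SF difference turned to 0.244 points. The SF KO libraries were also deeper, with 5154 to 10023 distal CpGs per oocyte, against 835 to 6066 in the SF WT libraries. When reads per CpG were matched along with density, the SF difference was -1.89 points. That match was made within each oocyte, between its distal CpGs and its rest. It did not equalise depth between the SF KO and SF WT libraries, so it cannot show what their depth contributed. The SF difference also moved with the read minimum, as given below.

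All KO oocytes but SF KO replicate 1 had little methylation in the matched rest as well, and there the deficit was a larger share of the level. The distal level was 61.0% and 64.3% of the matched rest in the EAF KO oocytes. It was 79.98%, 87.4%, 84.4% and 84.7% in the EAF WT oocytes. In the SF KO oocytes the share was 81.4%, 58.8%, 67.5%, 59.6% and 64.2%, and in the SF WT oocytes it ran from 71.3% to 93.7% with a median of 82.2%. The KO and WT ranges did not overlap at the early antral stage, where the means differed by -21.5 percentage points. At the secondary follicle stage the means differed by -17.6 points, and the ranges overlapped through SF KO replicate 1 alone. Without it the difference was -21.4 points. This relative difference depended on how the comparison was made: in EAF it was -1.31 points with chromosomes weighted equally, -6.34 points against CpGs 5 to 25 Mb from the end and -9.48 points with a 2-Mb window. In SF it was -0.954 points with a 2-Mb window and -7.78 points against CpGs 5 to 25 Mb from the end.

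The lower distal level came with more nearly unmethylated CpGs. The share of distal CpGs at 20% methylation or below was 91.7% ± 0.717 in EAF KO (SD, n = 2 oocytes) and 78.8% ± 2.31 in EAF WT (SD, n = 4 oocytes), against 86.9% and 73.5% in their matched rest. It was 89.5% ± 6.22 in SF KO (SD, n = 5 oocytes) and 85.6% ± 6.91 in SF WT (SD, n = 7 oocytes), against 83.7% and 82.3% in their matched rest. This share was higher in the distal ends in 18 of 18 oocytes, by 2.59 to 7.09 points. The share at 80% or above was lower in the distal ends in 15 of 18 oocytes, with differences of -2.45 to 0.467 points. The 3 exceptions were SF WT replicates 3, 5 and 6.

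The distal deficit was seen at intermediate CpG density. Among CpGs with 10 to 19 listed CpGs within 100 bp, the distal level was 5.77% in EAF KO, 11.4% in EAF WT, 7.05% in SF KO and 8.73% in SF WT. The matched rest in that class was at 10.6%, 17.2%, 12.1% and 12.46% in the same order of groups. The matched difference there was -4.80, -5.83, -5.01 and -3.73 points, and it was below 0 in 18 of 18 oocytes. Among CpGs with 5 to 9 within 100 bp it was -4.36, -4.81, -4.93 and -1.84 points and below 0 in 17 of 18 oocytes.

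At the sparse extreme the mean matched difference was below 0 in the KO groups only. At the dense extreme levels were too near 0 for a deficit of that size. With 1 to 4 CpGs within 100 bp, the matched difference was -1.84 ± 0.415 points in EAF KO and 1.61 ± 3.10 points in EAF WT. It was -1.67 ± 0.798 points in SF KO and 0.139 ± 2.24 points in SF WT, and 10 of 18 oocytes in all were below 0. All 7 KO oocytes were among these 10. In this class the distal level was 5.35% in EAF KO and 32.1% in EAF WT, against 9.94% in SF KO and 22.8% in SF WT. With 20 or more CpGs within 100 bp, the range of CpG islands, the distal level was between 0.448% and 0.984% in every group, and the matched differences were 0.323, -0.221, 0.332 and -0.447 points in EAF KO, EAF WT, SF KO and SF WT. The matched rest there was itself at 0.411% to 0.937%. The SF WT oocytes were all below 0, at -1.09 to -0.008 points.

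**Figure D2:**
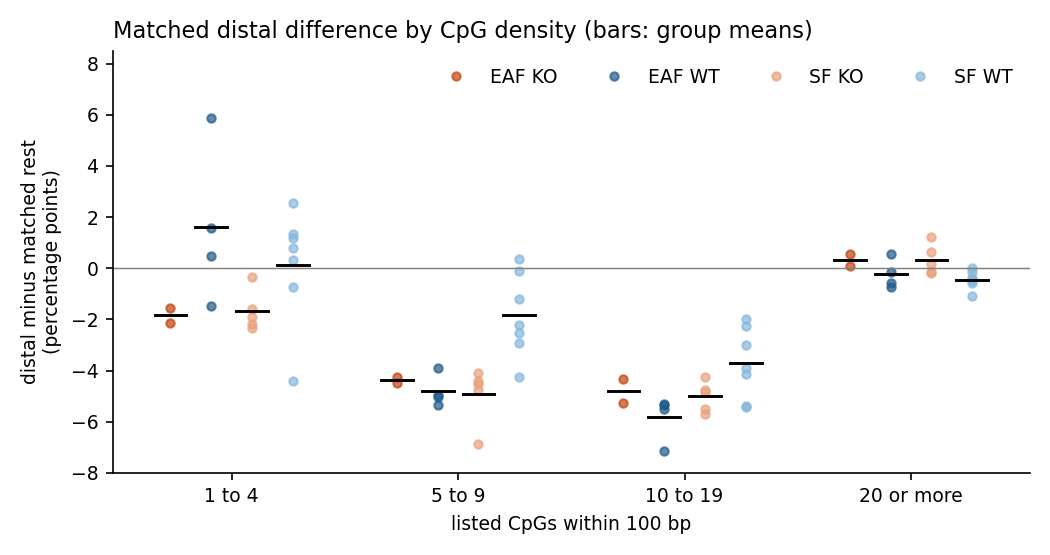
Distal level minus matched rest in percentage points (vertical axis) for 4 classes of CpG density (horizontal axis, listed CpGs within 100 bp). Each circle is an oocyte, and each black bar is the mean of the group named by the colour. All 18 oocytes are below 0 at 10 to 19 CpGs, and at 20 or more all group means lie within 0.447 points of 0. In that last class the matched rest is itself only at 0.411% to 0.937%.

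The 5-Mb limit was then set beside finer bins. Bins of distance from the chromosome end were compared with CpGs of equal density more than 40 Mb from it. Just inside the limit, at 4 to 5 Mb, the mean difference was -5.17 points in EAF KO and -8.64 points in EAF WT, against -6.77 points in SF KO and -3.03 points in SF WT. Just outside it, at 5 to 6 Mb, it was -4.76 points in EAF KO and 1.61 points in EAF WT, against -4.08 points in SF KO and -1.98 points in SF WT. In EAF WT the bins on either side of the limit did not overlap between oocytes, at -10.4 to -6.13 points inside and -0.788 to 5.76 points outside, and in the other 3 groups they did. Bins beyond the limit varied: the one at 8 to 9 Mb was above 0 in 9 of 18 oocytes, with means of 2.13 points in EAF WT and 3.56 points in SF WT. These oocytes were all WT, and the KO means there were -3.73 points in EAF KO and -3.38 points in SF KO. The bins at 6 to 7 Mb and 9 to 10 Mb were above 0 in 6 of 18 each. At 6 to 7 Mb these were again all WT, with means of -7.06 points in EAF KO and -5.59 points in SF KO. At 9 to 10 Mb they included EAF KO replicate 1, at 0.457 points. Farther in, the bins at 10 to 15 Mb and at 15 to 20 Mb were below 0 in 18 of 18 oocytes, with medians of -2.39 and -3.34 points. The last Mb before the end was also below 0 in 18 of 18 oocytes, with a median of -2.26 points, so the methylation did not fall steadily towards the last listed CpG.

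The level also differed along the whole chromosome. When each chromosome was cut into 10 equal parts and each part was set against the matched rest, the first part, beside the centromere, was higher by 4.15 points in EAF KO and 5.84 points in EAF WT, and by 4.35 points in SF KO and 4.80 points in SF WT. The ninth was lower in every group, at -2.33, -2.46, -2.46 and -1.80 points, and the last was at -3.79, -1.55, -3.20 and -0.86 points. In the KO groups the last part was the lowest of the 10, and in EAF WT the ninth was. In SF WT the lowest was the fifth part, at -1.88 points, and from the fourth part on neither WT group fell steadily towards the distal end.

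**Figure D3:**
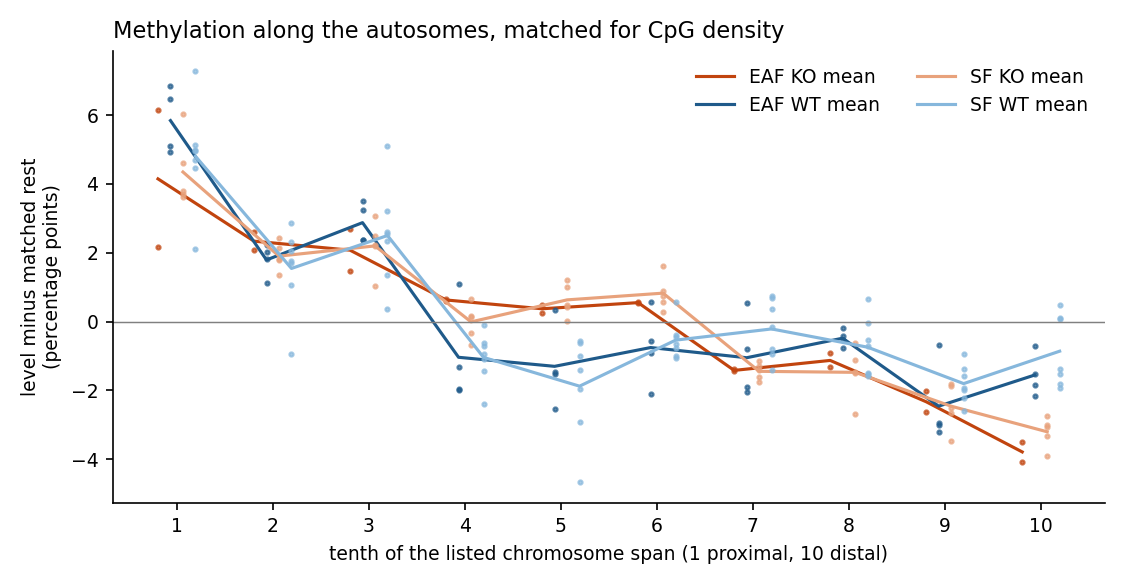
Mean methylation of each of 10 equal parts of the listed chromosome span minus the matched rest of the chromosome, in percentage points (vertical axis), from the proximal to the distal part (horizontal axis). Lines are group means and points are oocytes. The first part lies above 0 in every group, at 4.15 to 5.84 points, and the last part below 0, at -3.79 to -0.86 points.

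The opposite ends of the chromosomes stood above their surroundings. CpGs within 5 Mb of the lowest listed position were more methylated than their matched rest in 18 of 18 oocytes. The proximal differences were 1.39 and 4.54 points in the EAF KO oocytes, and 7.47, 5.21, 6.87 and 3.81 points in the EAF WT oocytes. They were 3.85, 3.35, 2.88, 1.77 and 2.97 points in the SF KO oocytes, and ran from 2.11 to 11.6 points with a median of 3.19 in the SF WT oocytes. Against this, no oocyte had a distal difference above 0. Leaving the proximal 5 Mb out of the rest moved the mean distal differences to -3.34 points in EAF KO, -3.17 points in EAF WT, -3.46 points in SF KO and -1.77 points in SF WT, all within 1 SD of the values above. With the rest limited to CpGs 5 to 25 Mb from the end, they shrank to -0.985, -1.62, -1.08 and -0.748 points, still below 0 in 18 of 18 oocytes.

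Chromosomes differed widely among themselves. The distal end was below its matched rest on 15 of 19 chromosomes in EAF KO, 15 in EAF WT, 15 in SF KO and 13 in SF WT. By group means, it was below in all 4 groups on 10 chromosomes (1, 2, 4, 5, 8, 10, 11, 13, 15 and 16) and above in all 4 on chromosomes 12 and 18. The 2 differed in their oocytes: 1 of 18 was below 0 on chromosome 12, and 9 of 17 were on chromosome 18. The chromosome 18 means were 0.025 ± 16.2 points in EAF WT and 0.771 ± 11.3 points in SF WT. When every 5-Mb window was treated in the same way, the distal window was below the rest on 78.9% of chromosomes in EAF KO, 78.9% in EAF WT, 78.9% in SF KO and 72.2% in SF WT. The SF WT share is over 18 chromosomes, since windows had to be read in every oocyte of a group and SF WT replicate 3 gave no matched distal value on chromosome 18. Of all the other windows, 48.2%, 52.2%, 46.3% and 53.4% were. The distal window was the lowest of its chromosome on 3 chromosomes in EAF KO, 1 in EAF WT, 1 in SF KO and 0 in SF WT.

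Chromosome 15, whose end carries the Hoxc and keratin genes, had one of the largest deficits. Its distal level was 2.02% and 3.24% in the EAF KO oocytes, against 10.7%, 10.9%, 13.8% and 23.1% in the EAF WT oocytes. All EAF KO oocytes were below all EAF WT oocytes there. The matched difference was -7.44 ± 0.454 points in EAF KO (SD, n = 2 oocytes) and -8.70 ± 5.43 points in EAF WT (SD, n = 4 oocytes). It was -6.76 ± 0.981 points in SF KO (SD, n = 5 oocytes) and -3.44 ± 5.62 points in SF WT (SD, n = 7 oocytes). It was below 0 in 17 of 18 oocytes, with SF WT replicate 7 the exception at 7.86 points.

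Chromosome 5 had the lowest matched difference in EAF WT among chromosomes with at least 100 distal CpGs in each EAF WT oocyte, at -9.52 ± 1.13 points (SD, n = 4 oocytes). In EAF KO it was -0.224 ± 3.98 points (SD, n = 2 oocytes), 1 oocyte above 0 and 1 below. Its distal level was 8.02% in EAF KO and 15.96% in EAF WT, against 7.88% in SF KO and 10.8% in SF WT. Chromosome 4, with one of the most CpG-rich ends, had matched differences of -5.60, -4.20, -7.39 and -2.60 points in EAF KO, EAF WT, SF KO and SF WT, and was below 0 in 17 of 18 oocytes. Chromosome 16 was also below 0 in 17 of 18 oocytes.

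Chromosome 12, whose end holds Ighv segments and 15 protein-coding genes (3 per Mb), went the other way. Its distal level was 27.8% and 18.4% in the EAF KO oocytes, against 34.9%, 40.4%, 34.6% and 25.4% in the EAF WT oocytes. The EAF KO and EAF WT oocytes overlapped there. The matched difference was 7.99 ± 6.01 points in EAF KO (SD, n = 2 oocytes) and 7.13 ± 3.29 points in EAF WT (SD, n = 4 oocytes), and it was 6.01 ± 3.13 points in SF KO (SD, n = 5 oocytes) and 4.22 ± 4.28 points in SF WT (SD, n = 7 oocytes). It was above 0 in 17 of 18 oocytes, all but SF WT replicate 4. Chromosome 14 was at -3.02 ± 0.794 points in EAF KO and 2.39 ± 5.73 points in EAF WT, where 2 of 4 oocytes were below 0 as both EAF KO oocytes were. Chromosome 10, with the olfactory receptor cluster, was at -5.40 ± 0.253 points in EAF KO and -0.762 ± 2.55 points in EAF WT, with no overlap.

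**Figure D4:**
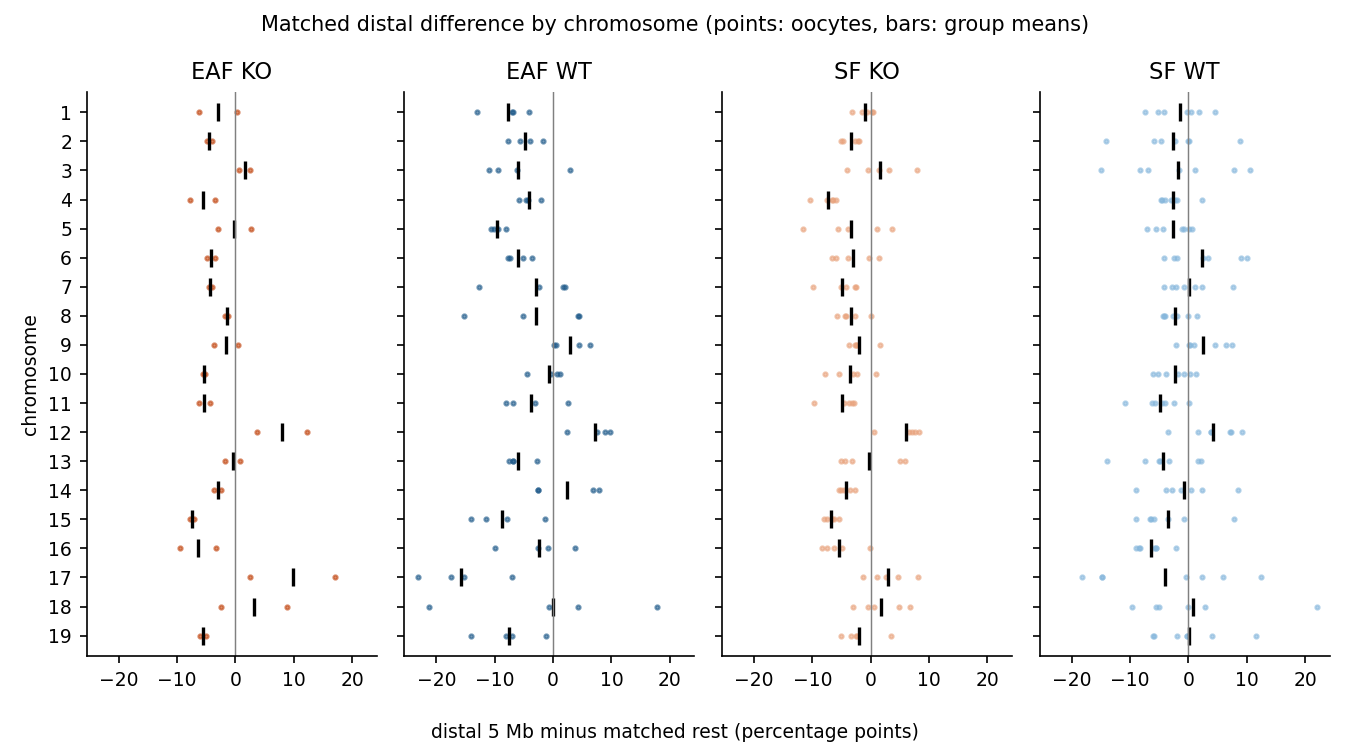
Distal level minus matched rest in percentage points (horizontal axis) for chromosomes 1 to 19 (vertical axis), with 1 panel a group. Points are oocytes and vertical bars are group means. By its group means, chromosome 12 lies above 0 and chromosome 15 below 0 in all 4 panels, and chromosome 17 changes side between EAF KO (9.79 points) and EAF WT (-15.7 points).

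By chromosome, the distal level was lower in EAF KO than in EAF WT on 18 of 19 chromosomes, with the lowest difference, -18.6 points, on chromosome 14 and the highest, 10.3 points, on chromosome 17. The matched rest was lower in EAF KO on 19 of 19. All EAF KO oocytes lay below all EAF WT oocytes in the distal ends of 12 of 19 chromosomes. The same held for the matched rest of 16 of 19 chromosomes, or 84.2%, so separation of the genotypes was no more frequent in the distal ends. The counts are not on an equal footing, since a distal mean rests on far fewer CpGs than its rest. On chromosome 1, for example, an EAF KO oocyte had as few as 17 distal CpGs. In SF, the KO mean was lower in the distal ends of 18 of 19 chromosomes and in the matched rest of 19 of 19, and the genotypes did not separate on any, as in the matched rest (0 of 19, or 0%).

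Across the 19 chromosomes, the matched distal difference was set against the gene content of the end. Spearman's rho with the protein-coding genes per Mb of the GRCm38.p6 end was -0.79 in EAF KO and -0.03 in EAF WT, and it was -0.72 in SF KO and -0.17 in SF WT. With the listed CpGs per Mb of the end it was -0.71 in EAF KO and 0.11 in EAF WT, and -0.81 in SF KO and -0.20 in SF WT. The 19 points share oocytes, libraries and CpG composition, the chromosomes with few genes also rest on few CpGs, and the builds of the 2 measures differ, so these values are descriptions. The end of chromosome 17, with 4 protein-coding genes, had 19 to 177 distal CpGs in a KO oocyte, and that of chromosome 18, with 8 such genes, had 64 to 247. In a WT oocyte they had 4 to 130 and 0 to 104. Coverage also differed between groups. Chromosomes with at least 100 distal CpGs in each oocyte numbered 9 in EAF KO, 8 in EAF WT, 18 in SF KO and 1 in SF WT.

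Few single regions could be followed from oocyte to oocyte. Of 1055 autosomal 1-kb tiles read in enough oocytes of each group, with at least 3 CpGs each, 20 were distal, 5 of them on chromosome 14 and 4 on chromosome 12. These 20 were more methylated than the distal ends as a whole, with a mean of 20.8% in EAF KO and 28.5% in EAF WT, against 25.4% in SF KO and 22.8% in SF WT. Means over all 1055 tiles were 20.9%, 27.2%, 24.1% and 24.1% in the same groups. No distal tile had a group mean of 80% or above, and of all 1055 tiles 0 did in EAF KO and in SF KO, 1.52% in EAF WT and 0.284% in SF WT.

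Between EAF KO and EAF WT, 4 of the 20 distal tiles were lower in KO by at least 20 points (20%), against 11.1% of all 1055 tiles. Another 2 were higher in KO by at least 20 points (10%), against 1.52% of all tiles. The median KO minus WT difference was -6.87 points over the distal tiles and -4.55 points over all tiles. In SF, 0 distal tiles were lower by at least 20 points, against 2.18% of all tiles, and 1 was higher, against 1.04%. Between EAF and SF in KO, 0 distal tiles differed by 20 points in either direction, against 1.42% lower and 0.853% higher among all tiles. In WT, 0 were lower in EAF (0.948% of all tiles) and 1 was higher (3.98%). With so few tiles, and with neighbouring tiles among them, the shares say little about the distal ends. When a tile had to be covered at 1 stage only, 5 of 26 distal tiles were lower in EAF KO (19.2%, against 11.9% of 1182 tiles) and 2 were higher (against 1.44%). In SF, 7 of 107 were lower (6.54%, against 6.35% of 2944 tiles) and 3 were higher (against 2.99%). Of those 107 tiles, 3 had an SF WT mean of 80% or above, against 1.22% of all 2944 tiles. In SF KO 0 of the 107 had such a mean, against 0.204% of all tiles.

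The tile with the largest EAF deficit was chr14:122924001-122925000 (mm9, 1-based), which was also the most methylated distal tile in EAF WT. It was at 22.7% and 46.4% in the EAF KO oocytes, against 73.0%, 80.5%, 69.4% and 46.5% in the EAF WT oocytes. Its lowest EAF WT oocyte was level with its higher EAF KO oocyte. In SF it was at 49.1%, 31.4%, 36.4%, 41.2% and 32.4% in KO, against a lowest value of 18.7%, a median of 51.5% and a highest of 63.9% in WT, so the groups overlapped. The adjoining tile, chr14:122925001-122926000, was at 24.4% and 41.9% in the EAF KO oocytes, against 77.8%, 75%, 55.0% and 49.1% in the EAF WT oocytes. The pair forms 1 region, and its mean KO minus WT differences were -32.8 and -31.0 points in EAF and -9.96 and -18.0 points in SF.

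The other tiles with an EAF deficit of at least 20 points lay on chromosomes 14 and 16. The tile chr14:124192001-124193000 was at 30.8% and 16.7% in the EAF KO oocytes, against 55.5%, 42.3%, 47.7% and 40.9% in the EAF WT oocytes. Its groups did not overlap in EAF, and in SF its means were 24.4% ± 10.5 in KO (SD, n = 5 oocytes) and 22.1% ± 7.13 in WT (SD, n = 6 oocytes). The tile chr16:95238001-95239000 had 0 methylated of 56 reads in the EAF KO oocytes, which allows a level of up to 5.36% for counting error only, with each read counted at every CpG it covers. In the EAF WT oocytes it was at 29.4%, 19.0%, 34.7% and 2.22%, from 146 reads. In SF it was at 15.4% ± 12.1 in KO (SD, n = 5 oocytes) and 31.5% ± 12.1 in WT (SD, n = 3 oocytes).

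The higher tiles were a pair of neighbours near the very end of chromosome 5, 0.072 Mb from its highest listed CpG, and they were higher in KO at both stages. The tile chr5:152458001-152459000 was at 29.3% and 35.3% in the EAF KO oocytes, against 6.22%, 0% and 16.4% in the EAF WT oocytes that covered it. Those groups did not overlap. In SF it was at 56.2%, 30.4%, 24.7%, 34.9% and 35.1% in the KO oocytes, against 31.9%, 11.02%, 0%, 10.4% and 0% in the WT oocytes that covered it, and SF WT replicate 1 fell inside the KO range. The means were 36.3% ± 11.9 in SF KO (SD, n = 5 oocytes) and 10.7% ± 13.02 in SF WT (SD, n = 5 oocytes). The adjoining tile, chr5:152457001-152458000, averaged 31.6% ± 19.8 in EAF KO (SD, n = 2 oocytes) and 9.11% ± 6.67 in EAF WT (SD, n = 4 oocytes), against 29.5% ± 12.6 in SF KO and 13.1% ± 14.0 in SF WT (SD, n = 5 oocytes each). Reads behind this pair were few, with 122 to 179 over the EAF KO oocytes and 155 to 176 over the EAF WT oocytes.

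**Figure D5:**
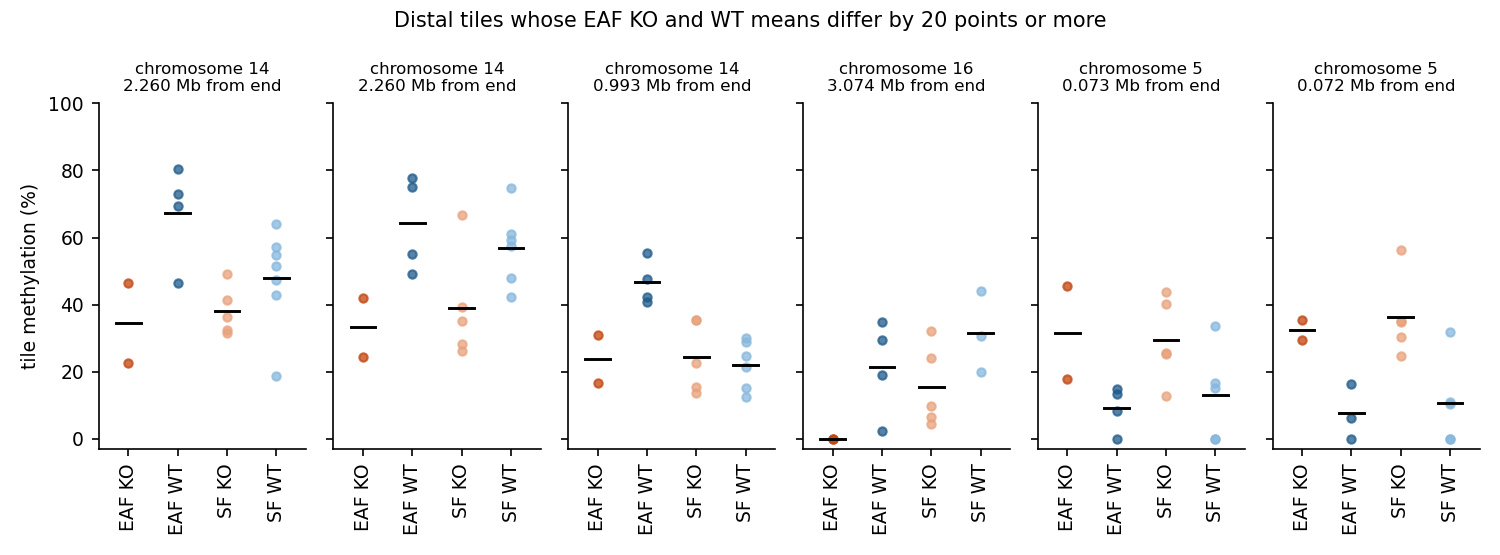
Methylation in percent (vertical axis) of the 6 distal 1-kb tiles whose EAF KO and EAF WT means differ by 20 points or more, 1 panel a tile, named by chromosome and distance from the highest listed CpG. Circles are oocytes and black bars group means (horizontal axis, groups). The 4 panels on the left are lower in EAF KO, with 0% in both EAF KO oocytes on chromosome 16, and the 2 panels for chromosome 5 are higher in KO at both stages.

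Other distal tiles differed less. The tile chr12:119626001-119627000 was at 52.6% and 52.0% in the EAF KO oocytes, against 59.5%, 61.3%, 59.5% and 58.5% in the EAF WT oocytes. Its EAF groups did not overlap, with means apart by -7.36 points. The tile chr13:119977001-119978000 averaged 26.3% ± 7.29 in EAF KO and 43.8% ± 8.53 in EAF WT, and chr12:117785001-117786000 averaged 36.3% ± 4.12 in EAF KO and 46.5% ± 2.43 in EAF WT, both without overlap. In SF, chr12:119922001-119923000 averaged 42.3% ± 13.9 in KO (n = 5 oocytes) and 23.7% ± 11.7 in WT (n = 7 oocytes), and chr10:128626001-128627000 averaged 23.6% ± 4.85 in KO and 12.3% ± 7.62 in WT, both with overlap. These groups did not average the same CpGs. The chromosome 12 tile had 8 to 9 CpGs in an SF KO oocyte and 3 to 9 in an SF WT oocyte. The chromosome 10 tile had 9 to 14 and 5 to 8. Its part in these differences was not tested. Higher in EAF KO at all were 3 of the 20 distal tiles (15%), against 285 of all 1055 tiles. These 3 were the chromosome 5 pair and chr12:119922001-119923000, by 1.72 points. In that chromosome 12 tile, EAF KO replicate 1 was at 6.75% over 3 CpGs and EAF KO replicate 2 at 37.8% over 8 CpGs. The EAF WT oocytes had 3 to 4 CpGs there, so its direction does not rest on the same CpGs. Next in that order were chr11:117671001-117672000, at or near 0% in every group (EAF difference -0.952 points), and a tile on chromosome 18, whose EAF means differed by -1.73 points.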

How the data were processed

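The authors digested single-oocyte DNA with MspI, converted it with bisulfite and amplified it by PCR, per the labels' protocols. BSMAP 2.89 and the build mm9 are named in the submitters' processing notes. At each CpG, the deposited tables hold a total count, a methylated count and their ratio as a fraction. Filtering before deposit is not given in the sources used here.

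From the counts, CpGs with at least 5 reads were kept, and levels were averaged over CpGs with equal weight. Each distal CpG was matched to the rest of its chromosome in the same oocyte, by the number of listed CpGs within 100 bp (capped at 40), and strata were weighted by distal CpGs. Tiles of 1 kb needed 3 CpGs in at least 2 EAF KO, 3 EAF WT, 3 SF KO and 3 SF WT oocytes. The matching was checked on simulated levels with known differences.

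Chromosomes were named if among the 3 highest or 3 lowest matched differences in EAF WT, with at least 100 distal CpGs in each EAF WT oocyte. Tiles were named if among the 5 highest in EAF WT or the 5 largest differences in each direction at a stage. Any other chromosome or tile was singled out after its values were seen. The members, lists and rules were chosen with earlier results of these data known. No test was made, since no animal is named.

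Autosomal read sums over CpGs ran from 450939 to 6284646 per oocyte. Lambda spike-in reads were not analysed here, so conversion was not checked. No sequence is printed, because no mm9 genome was used. Replicate numbers are shared between groups, but same-numbered oocytes did not deviate together: 0 of 13 pairs had a correlation above 0.1. The software was pandas 2.3.3, numpy 2.4.6 and scipy 1.17.1 in Python 3.11.15, with plots by matplotlib 3.10.9.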

Additional observations from a re-analysis of the deposited data

Results flagged for a closer look

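Values that stood far from the rest of their group by Dixon's criterion came up in 13 of 94 groups checked, where chance alone flags about 1 in 20. Of these, 8 belonged to SF KO replicate 1 and are not independent of each other, since they are readings of 1 library. Its distal level was 17.51%, its share of distal CpGs at 80% or above was 13.4%, and its share at 20% or below was 78.4%. Its distal level by density was 24.8% at 1 to 4 CpGs within 100 bp, 22.3% at 5 to 9 and 12.4% at 10 to 19. Its matched difference at 5 to 9 CpGs was -6.87 points, and the tile chr13:119977001-119978000 was at 53.0% in it. Its matched rest, at 21.5%, was high as well, and the part of this library in each SF KO mean was measured only by leaving it out.

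The other values came from single oocytes. In SF WT replicate 7 the proximal difference was 11.6 points. In EAF WT replicate 4 the distal level at 1 to 4 CpGs within 100 bp was 38.4%, and in EAF WT replicate 1 the matched difference at 10 to 19 CpGs was -7.16 points. The chromosome 4 difference was 2.27 points in SF WT replicate 6, and the chromosome 12 difference was 0.521 points in SF KO replicate 4.

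On chromosome 17 the distal end was above its matched rest in both EAF KO oocytes, by 2.56 and 17.02 points, and below it in all 4 EAF WT oocytes, with differences of -17.4, -23.2, -6.98 and -15.3 points. The means differed by 25.5 points, which was the only such split among 76 contrasts of sign by chromosome and genotype or stage. The difference was not tested, and it rests on 19 and 111 distal CpGs in the EAF KO oocytes and 28 to 79 in the EAF WT oocytes.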

How the results depend on the processing

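The cause of each shift below was not tested. The mean matched difference kept its sign in each group under every alternative run. Single oocytes lay above 0 under 5 of them: SF WT 7 with 10 reads, with read weighting and with chromosomes weighted equally, SF WT 3 and 6 with a 10-Mb window, and SF WT 1 and 6 with tile means. Values that moved by 1 oocyte SD or more are given in the order EAF KO, EAF WT, SF KO, SF WT, in points. With at least 1 read the matched difference was -2.92 in EAF KO and -3.11 in SF KO, and with 10 reads -2.79 in EAF KO and -0.906 in SF WT. With a 2-Mb window it was -2.12 in EAF KO and -1.53 in SF KO, and with 10 Mb -1.70 in EAF WT and -0.928 in SF WT. Read weighting gave -2.97 in EAF KO and -0.782 in SF WT, and tile means gave -2.85, -1.47, -2.51 and -0.800. Without matching it was -4.12, -4.16, -4.17 and -2.81, and with 4 density classes -3.83, -4.14 and -3.97 in the first 3 groups. Matching on depth too gave -3.08 in EAF KO. The reference 5 to 25 Mb from the end gave -0.985, -1.62, -1.08 and -0.748. Equal weight for chromosomes gave -1.89 in EAF KO and -2.27 in SF KO. Without chromosome 4 it was -3.10 in SF KO, without chromosome 12 it was -3.83 in EAF KO and -3.93 in SF KO, and without chromosome 15 it was -3.04 in EAF KO and -3.21 in SF KO.

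The KO minus WT difference of the matched difference changed sign in 20 of 39 alternatives in EAF, where it was -0.047 points. It was 0.890 with 10 reads, -1.76 with 10 Mb, -1.38 with tile means, 0.631 against 5 to 25 Mb and 2.15 with equal chromosomes. In SF it was -0.594 with 1 read, -2.75 with 10 reads, -2.39 with 10 Mb, -2.69 with read weighting, -0.334 against 5 to 25 Mb and -0.732 with equal chromosomes, and it reversed to 0.244 with 2 Mb. The relative distal level, KO minus WT, was added after the data were seen. In EAF it was -17.1 with 1 read, -13.5 with 10 reads, -9.48 with 2 Mb, -29.2 with 10 Mb, -27.6 with tile means, -6.34 against 5 to 25 Mb and -1.31 with equal chromosomes. Without chromosome 4, 5, 11 or 12 it was -18.1, -24.5, -18.5 or -24.7. In SF it was -28.1 with 10 reads, -0.954 with 2 Mb and -7.78 against 5 to 25 Mb. The EAF distal level, KO minus WT, was -13.7 with 10 Mb and -18.8 with tile means.

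Of the distal tiles, 0 differed by 40 points in either stage. With 1 CpG per tile, 8 were lower in EAF KO and 1 in SF KO. With 1 read, 17 were lower in EAF KO, 8 lower in SF KO and 4 higher in SF KO. With 10 reads, 2 were lower in EAF KO, and 0 were higher at either stage. The read and CpG minimums also decide which tiles are counted. The counts under other minimums therefore cannot be set against the number of distal tiles in the main analysis. Shares over all autosomal tiles are not given for them here. Leaving out 1 oocyte at a time, the tiles higher in EAF KO numbered 1 to 2, those higher in SF KO 1 to 3 and those lower in SF KO 0 to 2. Without SF KO replicate 1 the last count was 2. The SF distal level, KO minus WT, ran from -6.54 to -2.59 over these oocyte omissions, and the EAF minus SF level in KO from -3.13 to -0.024. With the replicate number as a block, the distal level, KO minus WT, was -12.9 in EAF and -1.51 in SF, and EAF minus SF was -5.56 in KO and 9.44 in WT. The matched difference, KO minus WT, was 0.233 in EAF and -1.43 in SF under the block, and the relative level -21.1 and -13.8. Same-numbered oocytes showed no correlation above 0.1, and whether they share an animal or a batch is not known. Depth limits what can be followed at single CpGs: 41 distal CpGs had 5 reads in all 18 oocytes.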

Other observations

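The proximal ends, within 5 Mb of the lowest listed position, held 25054 CpGs with 5 reads. Their level was 12.6% ± 3.49 in EAF KO (SD, n = 2 oocytes) and 27.6% ± 2.67 in EAF WT (SD, n = 4 oocytes), with no overlap. It was 15.1% ± 6.16 in SF KO (SD, n = 5 oocytes) and 19.8% ± 9.50 in SF WT (SD, n = 7 oocytes), with overlap. Relative to its matched rest, the proximal level was 129% in EAF KO and 127% in EAF WT, and 127% in SF KO and 127% in SF WT. The genotypes overlapped in this share at both stages. By chromosome, the proximal end was above its matched rest on 15 of 19 chromosomes in EAF KO, 15 in EAF WT, 14 in SF KO and 17 in SF WT, and chromosome 4 had a proximal difference of 28.4 points in EAF KO and 14.8 points in EAF WT. The imprinted genes H19, Igf2, Kcnq1ot1, Cdkn1c and Phlda2 lie in the last 5 Mb of chromosome 7 in GRCm38.p6, and the matched distal difference of that chromosome was -4.33 ± 0.391 points in EAF KO and -2.89 ± 6.86 points in EAF WT, and -4.92 ± 2.99 points in SF KO and 0.166 ± 3.99 points in SF WT. No value was assigned to any of these genes.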
